A study of Mus musculus with 9 samples.

Results

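The olfactory receptor genes of mouse chromosome 7 were taken as all protein-coding genes on this chromosome, in the GENCODE vM1 annotation of mm9, whose symbol starts with Olfr. There were 240 such genes among 22380 protein-coding genes, and they made up 21.6% of the 1113 Olfr genes of the genome. H3K27ac, an acetylation mark of histone H3 at active promoters and enhancers, was mapped by ChIP-seq in splenic naive CD8+ T cells. The cells were GFP+ TCRbeta+ CD62Lhi CD44lo-med CD8+ in both groups. Both groups carried the hCD2-Cre transgene, which acts mainly in mature peripheral T cells, and a GFP reporter at Rosa26. WT mice had intact Tcf7 +/+ and Lef1 +/+ alleles, and dKO mice were Tcf7 fl/fl and Lef1 fl/fl and so lost the transcription factors Tcf1 and Lef1. The H3K27ac samples numbered 4 in WT and 3 in dKO, with 1 input each. Per the study's methods the mice were young adults of both sexes. The values are 2 lists of enriched islands, each called on the pooled replicates of a genotype, with a read count per island. No difference below has a replicate check, no test between genotypes was possible, and intervals cover counting error only.

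Olfactory receptors are G protein-coupled receptors that detect odorants in the cilia of olfactory sensory neurons. Each gene has its coding sequence in a single exon, and the genes lie in tandem clusters. A mature sensory neuron expresses one allele of one receptor gene, while the remaining receptor genes are packed in heterochromatin. Class I receptors, the family shared with fish, sit in a single cluster on chromosome 7 that also holds the beta-globin genes, and class II receptors fill the other clusters. These genes have no known role in naive CD8+ T cells, and a histone mark over them is not a measure of their transcription.

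The WT list held 65563 islands with 82668007 counts, and the dKO list held 82213 islands with 57665047 counts. Islands covered 15.2% of chromosome 7 in WT and 16.1% in dKO. Counts were divided by the total island counts of their list before any comparison, and are given as CPM, where the counts of a list sum to 1000000. As a check of the label, the CD8 T cell markers Cd3e, Cd3g, Cd8a, Cd8b1, Lck, Cd5 and Ccr7 had islands in both lists, at 269 to 461 counts per kb in WT (Cd3e and Cd8a) and 225 to 294 counts per kb in dKO (Ccr7 and Cd3e). Their log2 ratios of scaled counts ran from -1.16 at Cd8a and Ccr7 to 1.33 at Cd3e. The defining markers of other lineages were not free of the mark. The B cell markers Ms4a1, Cd79a and Cd79b and the myeloid markers Lyz2, Csf1r and Itgam had islands in both lists, at 108 to 305 counts per kb in WT and 83.4 to 212 in dKO. Their log2 ratios were 0.64 at Ms4a1, -0.21 at Cd79a, 0.94 at Cd79b, 0.08 at Lyz2, 0.16 at Csf1r and -0.03 at Itgam. Of 6 markers of olfactory sensory neurons, 4 had an island in each list, and Cnga2 and Gng13 had none. Over all protein-coding genes 69.9% had an island in WT and 70.2% in dKO. The log2 ratios of the 4 were 0.43 to 0.96 (Gnal and Omp) by counts. Per kb of island they were -0.34 to -0.04 (Gnal and Omp). The part of other cells in the values below was not tested.

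Upstream sequences of 3 genes are shown because the results turn on them. Olfr524 had the most island counts of all members over both lists. Olfr523 had the largest count ratio within the 5 kb window used below. Olfr541, the last gene of its cluster, had the most counts among genes with islands in dKO alone. Each run holds the 250 bases before the annotated start, 5′ to 3′ in the direction of the gene, in mm9. They lie at chr7:147388700-147388949 on the minus strand, chr7:147361710-147361959 on the plus strand and chr7:147889814-147890063 on the plus strand. Capitals mark the letters CTTTGA, the core of the Tcf/Lef motif.
Olfr524: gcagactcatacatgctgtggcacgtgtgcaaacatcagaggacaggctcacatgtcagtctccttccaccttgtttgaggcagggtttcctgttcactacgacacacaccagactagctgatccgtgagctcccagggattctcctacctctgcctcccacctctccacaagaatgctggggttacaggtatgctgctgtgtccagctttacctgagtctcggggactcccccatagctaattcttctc
Olfr523: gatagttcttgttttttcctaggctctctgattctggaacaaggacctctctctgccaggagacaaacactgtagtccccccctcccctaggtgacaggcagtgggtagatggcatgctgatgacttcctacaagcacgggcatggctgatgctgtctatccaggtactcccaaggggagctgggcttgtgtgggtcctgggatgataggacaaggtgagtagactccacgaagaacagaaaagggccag
Olfr541: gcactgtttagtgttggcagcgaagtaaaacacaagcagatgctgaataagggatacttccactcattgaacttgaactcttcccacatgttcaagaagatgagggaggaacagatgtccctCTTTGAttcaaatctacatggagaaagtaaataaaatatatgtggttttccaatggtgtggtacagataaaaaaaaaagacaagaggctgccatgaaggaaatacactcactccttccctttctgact
The Olfr541 run held 1 match, at base 123, and the runs of Olfr524 and Olfr523 held none. G and C made up 53.6% of the bases before Olfr524 and before Olfr523, and 39.6% before Olfr541. Searching both strands, CTTTGA or its complement was present upstream of 53 of 240 members (22.1%) and of 5 of the 19 genes of the Olfr522 to Olfr541 cluster (26.3%), against 13.4% of all protein-coding genes. Among the 46 members with an island in either list it was 8 (17.4%). TAATTA, a core bound by homeodomain proteins such as Lhx2, was upstream of 15.4% of members and 4.62% of all genes. The Ebf motif, a palindrome, was upstream of 1 member (0.417%) and of 0.791% of all genes. None of the motifs is contained in another. Median GC content of the gene and its flanks was 38.3% over all members, against 46.8% for the other protein-coding genes of chromosome 7. The part of base composition in these motif shares was not tested. For 150 of 240 members the annotated gene began at the start codon, so these windows need not be promoters, and a match is only a match of letters.

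The majority of the olfactory receptor genes of chromosome 7 lay outside H3K27ac islands in both genotypes. An island was counted for a gene when it touched the gene or the 5 kb on either side, and the count of an island was taken whole. In WT, 33 of 240 members (13.8%) had an island, whereas 69.9% of all protein-coding genes did. In dKO, 42 members (17.5%) had one, against 70.2% of all genes. The order of the lists turned with islands of at least 200 counts alone, at 33 members in WT and 28 in dKO, a filter that falls harder on the dKO list with its lower total. With islands of at least 3 CPM it was 31 and 33. Neither list had an island at 194 members (80.8%), and 28.0% of all genes lacked one. Both lists had islands at 29 members, with 68.0% as the share over all genes. WT islands alone were found at 4 members, or 1.67%, where the share over all genes was 1.86%. dKO islands alone were found at 13 members, or 5.42%, where it was 2.12%. Of these 13, 7 were among the 19 genes of the Olfr522 to Olfr541 cluster and 6 among the 221 other members. Within 1 kb of an annotated start, an island was present at 23 members in WT and 33 in dKO, against 62.9% and 63.3% of all genes. The gene body itself was touched by an island at 22 members in WT and 30 in dKO, against 66.7% and 67.2%.

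The comparison sets differed from the members in these shares. Of 873 Olfr genes on other chromosomes, 47 (5.38%) had an island in WT and 48 (5.50%) in dKO. They split nearly evenly into 9 with WT islands alone and 10 with dKO islands alone. Of 154 Vmn1r and Vmn2r genes of chromosome 7, vomeronasal receptor genes that also lie in clusters, 1 had an island in each list. In contrast, 1233 of the 1678 other protein-coding genes of chromosome 7 had one in WT (73.5%) and 1243 in dKO (74.1%), with a median log2 count ratio of -0.06, as over all genes. dKO islands alone were found at 1.15% of the Olfr genes elsewhere and at 2.26% of these other genes. These shares are descriptions over genes and carry no test.

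**Figure D1:**
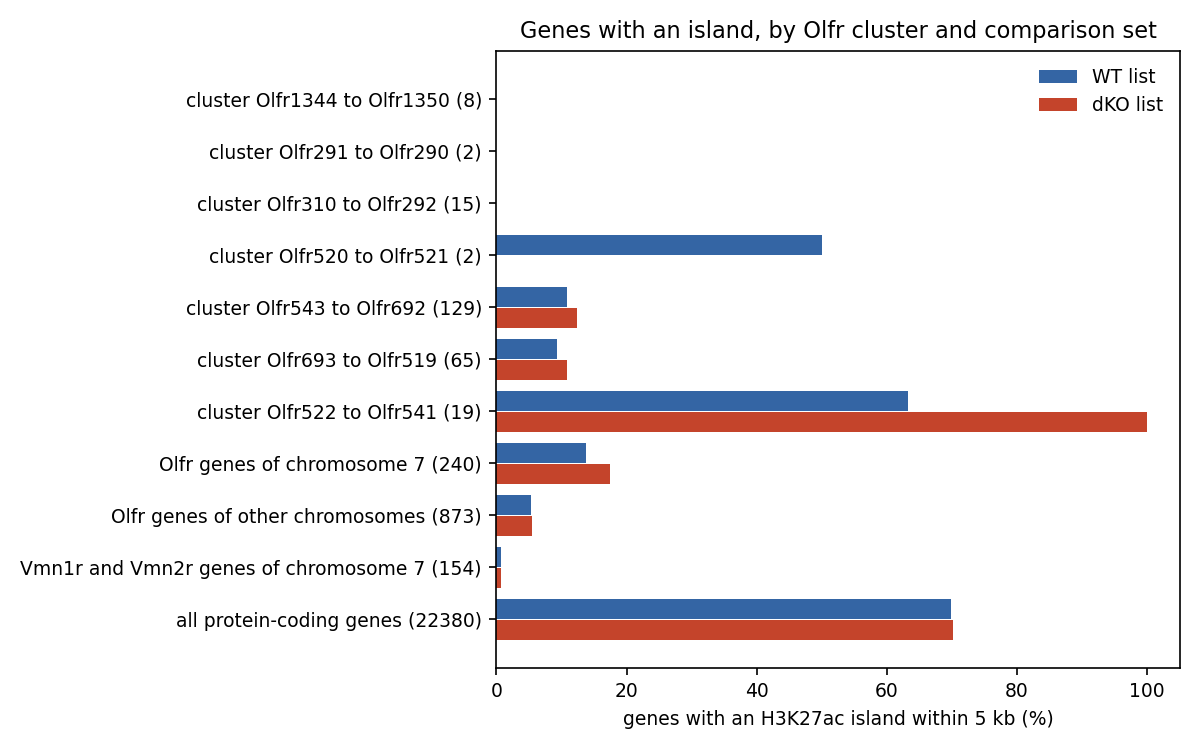
Percent of genes with an H3K27ac island within 5 kb (horizontal axis) for the 7 Olfr clusters of chromosome 7 and 4 comparison sets, with the number of genes in parentheses, in the WT list (blue) and the dKO list (red). The Olfr522 to Olfr541 cluster reached 63.2% in WT and 100% in dKO, 3 clusters stayed at 0 in both lists, and all protein-coding genes sat near 70.2%.

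Members were joined into clusters where they lay 1 Mb or less apart, which gave 7 clusters. The islands were unevenly spread among them. The Olfr1344 to Olfr1350 cluster (8 genes, chr7:6392547-6523630), Olfr291 with Olfr290 (chr7:92002083-92065238) and the Olfr310 to Olfr292 cluster (15 genes, chr7:93417240-93843894) had no island within 5 kb of any member. The genes of the Olfr310 to Olfr292 cluster lay farthest from the mark, with a median of 1556 kb to the nearest island in either list. Zfp28, a zinc finger gene before the Olfr1344 cluster, carried islands at 1187 counts in WT and 751 in dKO, and Zim1, behind it, carried none. Zfand6, before Olfr291, had 7955 counts in WT and 2310 in dKO, with a log2 ratio of -1.26. Vmn2r65, behind Olfr290, and Vmn2r76 and Folh1, on the sides of the Olfr310 to Olfr292 cluster, had none. Olfr520, next to the transporter gene Slco2b1, had a WT island of 491 counts 3.0 kb away and no dKO island within 5 kb, while its partner Olfr521 had none. Over the span of this pair 1 WT island of 491 counts stood against 1 dKO island of 108, a log2 ratio of -1.67.

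The cluster nearest the end of the chromosome, from Olfr522 to Olfr541, had the largest difference in island cover of the 7. It holds 19 genes over 543 kb at chr7:147347838-147891166. In WT, 12 of its genes had an island within 5 kb, and in dKO all 19 did, each with an island over the gene body. Genes with dKO islands alone numbered 7, and genes with WT islands alone 0. With islands of at least 2 CPM per kb alone, 4 genes were marked in WT and 12 in dKO. Over the whole span there were 27 WT and 65 dKO islands. Island cover was 31.4% in WT and 55.4% in dKO. The summed counts were 33008 in WT and 50117 in dKO, a log2 ratio of 1.12 after scaling (95% counting interval 1.10 to 1.14). Stretches without an island in a list have no count. Ratios over a whole span, here and for the other clusters, therefore compare called islands alone, and their intervals do not cover this. Counts per covered kb were 183 in WT and 164 in dKO, before scaling.

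**Figure D2:**
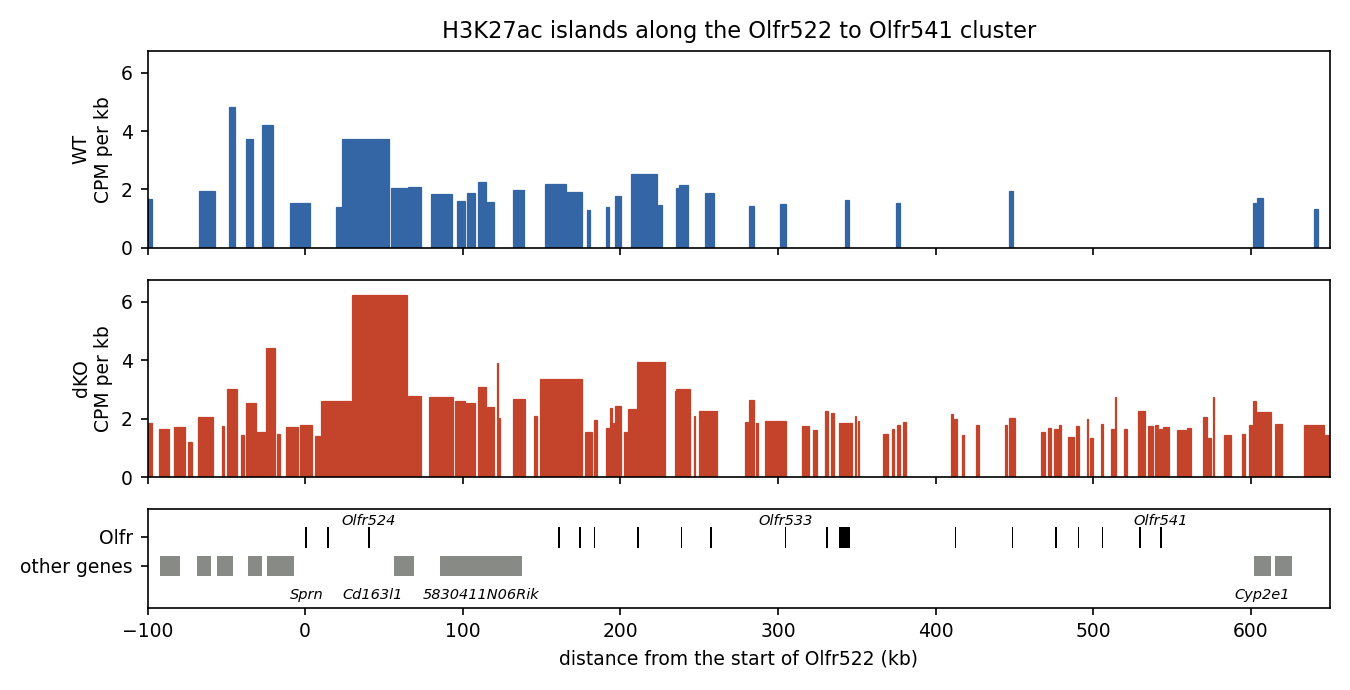
Islands of the WT list (top, blue) and the dKO list (middle, red) along the Olfr522 to Olfr541 cluster, with bar height as CPM per kb of island, and genes below (black for Olfr, grey for other protein-coding genes). The horizontal axis is the distance from the start of Olfr522 in kb. WT islands thin out beyond 300 kb, whereas dKO islands go on to the far end of the cluster. Outlines widen the narrowest bars.

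The genes at the near end of the cluster carried the mark in both genotypes. Olfr524 lay inside a single wide island in each list, 29.8 kb wide with 9146 counts in WT and 34.4 kb wide with 12389 counts in dKO. Its log2 ratio was 0.96 by counts (0.92 to 1.0) and 0.75 per covered kb. Both islands covered 100% of its window. Both are also counted for the neighbouring gene Cd163l1, and the dKO island runs over the start of that gene. Olfr523, a neighbour toward the cluster's edge, had 348 counts in WT, from an island 4.39 kb away, and 3157 in dKO, where islands covered 94.6% of the window. The log2 ratio of 3.70 (3.54 to 3.86) was the highest among the members, and per covered kb it was 0.78. It exists with the 5 kb window and not with 2 kb, where Olfr523 had no WT island. Its main dKO island, of 2863 counts, also overlapped the WT island of 9146 counts around Olfr524, which lies outside the window of Olfr523. Olfr522, the first gene, shared its WT island with Sprn, a gene of the prion family next to it, and had 1544 WT counts and 1860 dKO counts (log2 ratio 0.79).

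Farther in, Olfr525 had 3912 WT counts and 5165 dKO counts, a log2 ratio of 0.92. Olfr527 had 1757 and 5575, a log2 ratio of 2.19 (2.11 to 2.26). Of these dKO counts, 5165 came from the 1 dKO island also counted for Olfr525. That island also overlapped a WT island of 2367 counts, which lies outside the window of Olfr527 and is missing from its WT sum. Olfr530 had 3438 and 4757 (log2 ratio 0.99). For these 3 genes the ratio per covered kb was 0.71, 0.78 and 0.49, so density as well as width was higher in the dKO list. Olfr60 stood between them with few counts, 212 in WT and 660 in dKO. Olfr531 and Olfr532 had 1202 and 738 counts in WT and 1524 and 1479 in dKO. All 9 genes from Olfr522 to Olfr532 had an island in both lists.

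The far end of the cluster was nearly free of islands in WT. Of the 10 genes from Olfr533 to Olfr541, 3 had a WT island and 10 had a dKO island. Between the start of Olfr533 and the end of Olfr541 there were 4 WT islands with 1474 counts and 34 dKO islands with 9394 counts. Cover was 3.32% in WT and 32.3% in dKO, and the islands that were called had 134 counts per kb in WT and 104 in dKO, a log2 ratio of 0.16 after scaling. No ratio of the summed counts is given, since stretches without a WT island have no WT count. Olfr533 had 494 WT counts and 1477 dKO counts, a log2 ratio of 2.10. Olfr536 had 324 and 1277 (2.50). Olfr46 had 324 and 521 (1.20), and its ratio per covered kb was 0.00.

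The 7 genes with dKO islands alone were Olfr535, Olfr538, Olfr61, Olfr53, Olfr539, Olfr45 and Olfr541. Their dKO islands held 395 to 1012 counts, or 6.85 to 17.5 CPM. Olfr541 had the most, 1012 counts in 4 islands that covered 71.5% of its window. Olfr45 followed with 842 counts, Olfr53 with 651 and Olfr61 with 587. Olfr535 had 514 counts, Olfr538 had 493 and Olfr539 had 395. All 7 genes had a dKO island within 1 kb of its annotated start. The nearest WT island was 10.7 kb away at Olfr535 and 71.2 kb away at Olfr45. An island that was not called leaves no count, so the WT level at these genes is not known and no ratio is given.

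**Figure D3:**
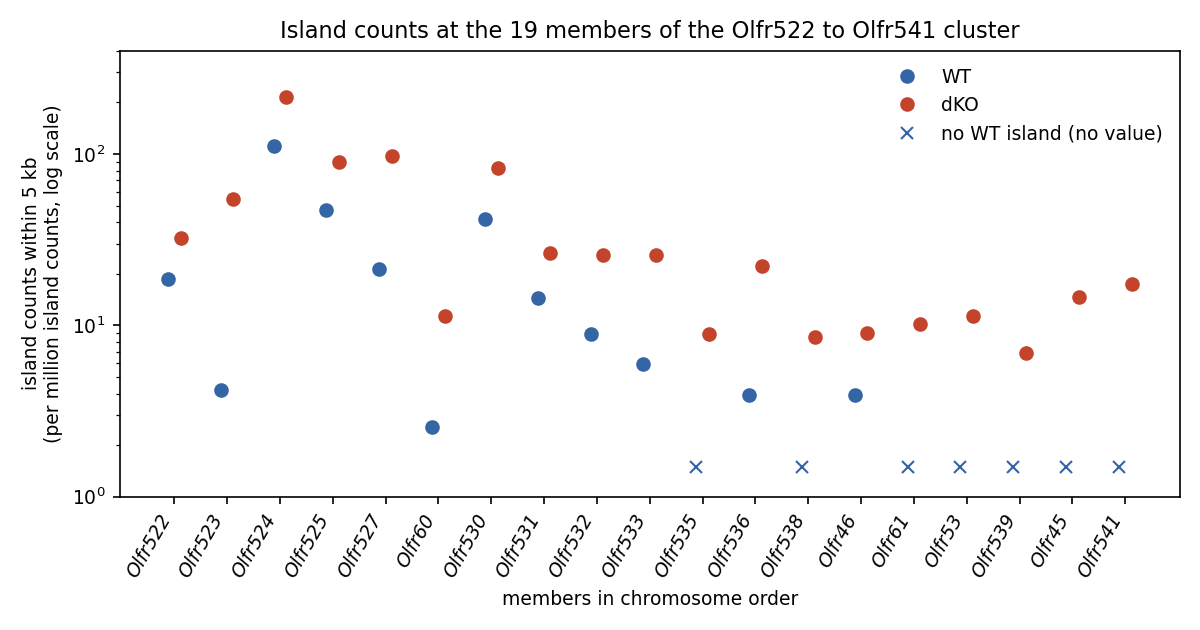
Island counts within 5 kb of each of the 19 genes of the Olfr522 to Olfr541 cluster in chromosome order (horizontal axis), as CPM on a log scale (vertical axis), for WT (blue points) and dKO (red points). Crosses at the bottom mark the 7 genes with no WT island, which have no value. The dKO point lies above the WT point at all 12 genes that have both.

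Density was also compared for the dKO islands that shared no base with a WT island. Some of these lay near genes marked in both lists, such as Olfr60 and Olfr531. The 23 dKO islands near members of this cluster that shared no base with a WT island had a median of 103 counts per kb. Rescaled to the total of the WT list this is 148 counts per kb, with a range of 114 to 244 (the highest near Olfr531). The median over all WT islands was 142 counts per kb, and the 5th percentile was 107. These islands had passed the dKO call, so their density does not show whether they would have been called in WT, and the part of depth was not tested. Reads that repeat along the genome are lost in a filter on mapping quality. Among the 7 genes with dKO islands alone, 2 had windows where under 80% of the 50-base words occurred once in the genome. They were Olfr53 and Olfr538 (69.8% and 76.4%), whereas the median over members was 94.2%.

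The difference did not stop at the borders of the cluster. In 100 kb bins counted from the start of Olfr522, WT cover was 71.4%, 54.0%, 34.4%, 9.0%, 2.0% and 0% over the span of the genes. dKO cover in the same bins was 90.4%, 68.0%, 61.2%, 35.8%, 29.4% and 41.2%. The 100 kb before the cluster went from 37.8% in WT to 69.0% in dKO. The 2 bins behind it, from 600 to 800 kb, went from 35.4% to 66.8% and from 58.2% to 79.0%. By 900 to 1000 kb the lists were close, at 90.4% and 92.4%. Over all autosomes, cover was at least 20 points higher in dKO in 3.17% of 100 kb bins and at least 20 points lower in 1.07%.

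Genes in and around the cluster followed the same direction. Cd163l1, a scavenger receptor gene of the Cd163 family, lies within the cluster and had 12379 counts in WT and 13803 in dKO, a log2 ratio of 0.68 (0.64 to 0.71) and 0.85 per covered kb. 5830411N06Rik, beside it, had 6250 and 7056 (log2 ratio 0.69). Sprn had a log2 ratio of 0.69. Cyp2e1, a cytochrome P450 gene behind the far end, had 793 counts in WT and 2139 in dKO (1.95). Several of these genes share islands with members, so their values are not separate measurements.

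Positions from the study's own lists place the near end in named elements. A dKO-prepotent SE, a super enhancer with a stronger H3K27ac signal in dKO, spans chr7:147246801-147609199 and holds the 9 genes from Olfr522 to Olfr532. The SE was chosen on these same libraries and is no independent evidence. In its part of the cluster cover was 60.1% in WT and 78.2% in dKO, with a log2 ratio of 0.55 per covered kb. The 10 genes behind it are outside. A dKO-specific hub, a stretch with stronger Hi-C contacts in dKO in other libraries, covers chr7:147300001-147470000 and Olfr522, Olfr523 and Olfr524. A second covers chr7:110970001-111070000 and Olfr66, Olfr64, Olfr65 and Olfr631 of the class I cluster, none of which had an island within 5 kb. The listed hubs, SEs and accessible sites are only those that the study linked to a gene with changed expression. Of the 35 listed dKO-specific hubs, 32 are on chromosome 7. No member lay in a listed WT-prepotent SE or a listed differentially accessible site. Of the 49 listed WT-specific hubs 0 are on chromosome 7, so none could hold a member.

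Among the 30 Olfr clusters of the genome with 5 or more genes, the Olfr522 to Olfr541 cluster ranked first by the share of genes with a dKO island, and no other cluster had all of its genes marked. It also ranked first by the gain in cover, at 24.0 percentage points. Next was the Olfr1416 to Olfr12 cluster of chromosome 1, with 12.7 points and 6 of 8 genes marked in each list. The Olfr30 to Olfr225 cluster of chromosome 11 gained 7.26 points. Cover was higher in dKO in 9 of the 30 clusters and lower in 9, and 13 had no member with an island in either list.

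The class I cluster, from Olfr543 to Olfr692 at chr7:109625287-112517869, behaved differently. It holds 129 genes over 2893 kb, with 57 islands in WT and 66 in dKO that covered 8.44% and 7.55% of the span. Summed counts were 43451 in WT and 25564 in dKO, a log2 ratio of -0.25 (-0.27 to -0.22). Islands within 5 kb of its receptor genes held 11081 counts in WT and 6663 in dKO, so most of these sums lay away from the receptors. WT islands were found at 14 genes and dKO islands at 16. The 2 lists shared 13 genes, with 1 gene in WT alone, 3 in dKO alone and 112 in neither. The 56 genes from Olfr33 to Olfr629, a stretch of 1028 kb, had no island within 5 kb in either list.

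The marked class I genes lay in a few groups beside genes of other families. The first 7 genes, from Olfr543 to Olfr550, all had islands in both lists, next to Rrm1, which encodes a subunit of ribonucleotide reductase, and Trim21, which encodes an intracellular antibody receptor. Olfr547 had 2442 counts in WT and 558 in dKO, a log2 ratio of -1.61 (-1.74 to -1.48). Olfr543 had 1812 and 589 (-1.10), and Olfr548-ps1 had 1217 and 138 (-2.62), the lowest ratio among the members. At Olfr549 the window held 640 and 1274 counts (1.51), but 967 of the dKO counts came from an island over Trim21 that reaches into the window, while the WT island there, of 1114 counts, stays outside it. The island nearest the start of Olfr549 had 640 counts in WT and 141 in dKO. Per covered kb the ratios of Olfr547, Olfr543, Olfr548-ps1 and Olfr549 were -0.26, -0.04, 0.16 and -0.27. With each island's counts prorated to its part inside the window they were -0.59, -0.16, -0.97 and -0.07.

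Olfr544, Olfr545 and Olfr550 had 1551, 1264 and 1322 counts in WT and 861, 811 and 684 in dKO. The interval of Olfr545, -0.25 to 0.01, was the 1 that crossed 0 among the 29 members with a ratio. Olfr557 and Olfr558 shared 1 island in each list, with 640 counts in WT and 361 in dKO, and these 2 islands had no base in common. Olfr630 and Olfr69, near the beta-globin genes, shared an island of 302 counts in WT and 100 in dKO, 3.74 to 4.79 kb from the genes. Olfr648 had 1253 and 605 counts (-0.53). Olfr649, before the Trim genes, had 1976 and 1826 (0.41) and had the most dKO counts of the class I genes. Olfr692, the last gene, had a WT island of 374 counts and no dKO island. Olfr553, Olfr556 and Olfr646 had dKO islands alone, of 194, 109 and 157 counts.

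Other genes inside the class I cluster were marked more often than the receptors. Of 28 annotated entries, 14 had an island in WT and 16 in dKO. Trim30b is counted more than once among them, as overlapping entries that each had islands in both lists. The 5 beta-globin genes (Hbb-b1, Hbb-b2, Hbb-bh1, Hbb-bh2 and Hbb-y), erythroid genes, had none in either list. The Trim genes, a family with members that restrict viruses, held the largest counts. Trim34a had 12442 WT counts and 5948 dKO counts (log2 ratio -0.55), Trim12a had 8556 and 3498 (-0.77), Trim6 had 5755 and 2279 (-0.82), and Trim30a had 5084 and 3860 (0.12). Per covered kb these were -0.02, -0.04, -0.31 and -0.06. This group includes near-identical copies, and the loss of reads that map to several of them was not measured.

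**Figure D4:**
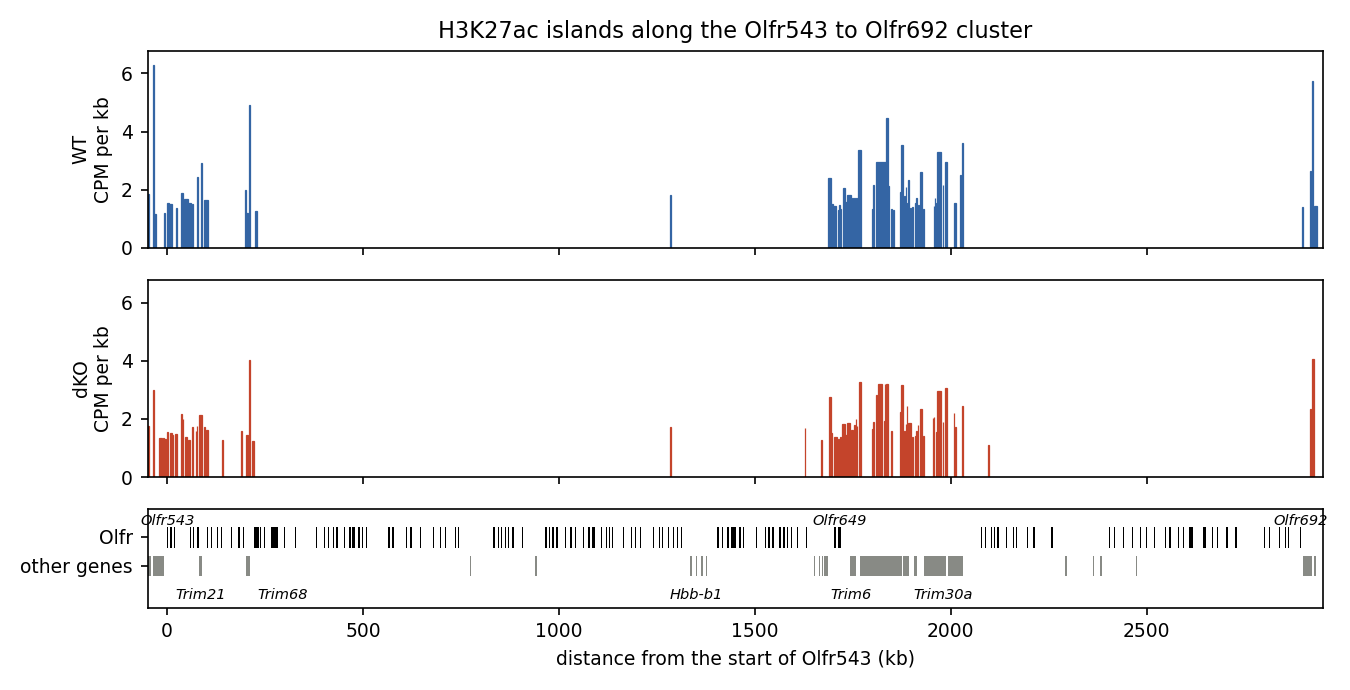
Islands along the class I Olfr543 to Olfr692 cluster in the WT list (top, blue) and the dKO list (middle, red), with bar height as CPM per kb of island, genes below (black for Olfr, grey for other protein-coding genes) and distance from the start of Olfr543 in kb on the horizontal axis. Islands sit at the first genes and over the Trim genes in both lists, and none lies in the 1028 kb from Olfr33 to Olfr629. Outlines widen the narrowest bars.

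The Olfr693 to Olfr519 cluster, 65 class II genes at chr7:113821048-116037934, was marked at 6 genes in WT and 7 in dKO. Both lists had islands at 4 genes, WT alone at 2 and dKO alone at 3. Of these 9 genes 8 were the consecutive genes from Olfr694 to Olfr702, over 138 kb. Olfr701 had 701 WT counts and 387 dKO counts (log2 ratio -0.34), Olfr699 had 563 and 138 (-1.51), and Olfr702 had 319 and 341 (0.62). Olfr700 had 1 island of 1.0 kb over the gene in each list, with 260 counts in WT and 134 in dKO (-0.44, -0.74 to -0.14). Olfr695 and Olfr694 had WT islands alone, of 645 and 210 counts, and Olfr697, Olfr713 and Olfr698 had dKO islands alone, of 173, 119 and 102 counts. The last 44 genes, from Olfr714 to Olfr519, had none over 1821 kb, although Ppfibp2, a liprin gene inside that stretch, had 8276 counts in WT and 5737 in dKO (-0.01).

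At the 29 members marked in WT and in dKO, log2 ratios had a median of 0.41 and a range of -2.62 to 3.70, and the median over all genes so marked was -0.06. Ratios of at least 1.5 toward dKO were found at 14 members, where 14.3% of all such genes had one, and toward WT at 6, where 13.3% did. The sign of this median rested on the window, since it was -0.27 with 2 kb, -0.12 with 10 kb and -0.02 with 1 kb around annotated starts. The 2 directions came from different clusters. All 12 genes of the Olfr522 to Olfr541 cluster were higher in dKO by at least 1.5 times, with a median of 1.36. Of the 17 genes of the other clusters, 2 were higher and 6 lower, with a median of -0.43. Whole islands enter these counts, so where an island meets the edge of a window matters. With counts prorated to the window the medians were 0.90 and -0.44, 10 of the 12 genes and 1 of the 17 were higher by at least 1.5 times, 0 and 7 were lower, and 3 of the 29 members (Olfr545, Olfr549 and Olfr557) changed sign. Per covered kb the medians were 0.44 and -0.04, and 0.03 over the 29 members, against -0.16 over all genes. By that measure 4 members reached 1.5 times toward dKO, where 1.11% of all genes did, and 0 toward WT, where 12.2% did. The 4 were Olfr523, Olfr524, Olfr525 and Olfr527, neighbours in 1 cluster. The 2 other scalings tried moved each ratio by 0.07.

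**Figure D5:**
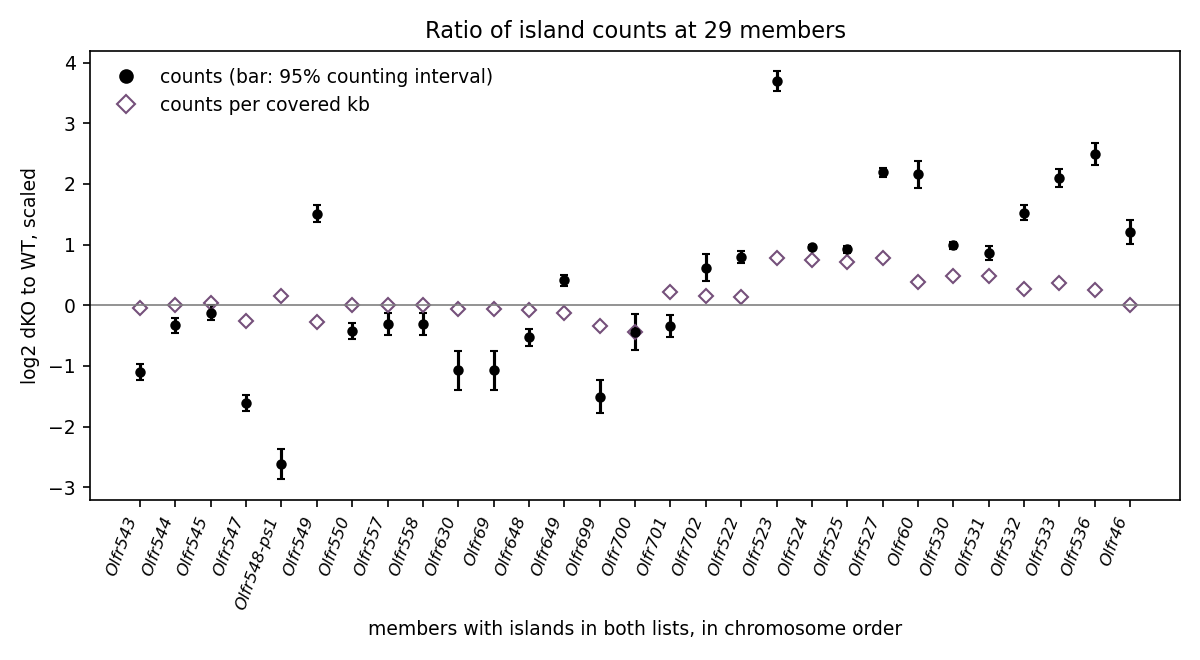
Log2 ratio of dKO to WT island counts (vertical axis), each scaled to the total of its list, at the 29 members with islands in both lists in chromosome order (horizontal axis). Black points give counts with 95% counting intervals and open diamonds give counts per covered kb. The last 12 members, from Olfr522 on, lie at 0.79 or above by counts, and 8 of the 17 before them lie above 0 per covered kb.

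Genes are not the unit of the mark here, since 1 island can reach several of them. The 33 marked genes in WT drew on 42 islands, 9 of them near more than 1 member, and the 42 in dKO drew on 65 islands, 13 of them near more than 1. Of the WT islands 35 shared at least 1 base with a dKO island. The median island near a member had 127 counts per kb in WT and 100 in dKO, where the medians over all islands were 142 and 98.3. The members just inside the 5 kb limit were Olfr713 (3.98 kb), Olfr69 (4.19 kb) and Olfr697 (4.82 kb). Those just outside it were Olfr652 (5.67 kb), Olfr653 (6.14 kb) and Olfr555 (6.52 kb).

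Marked and unmarked members were compared in their sequence and surroundings. A median of 94.7% of 50-base words occurred once in the genome for the 46 members with an island in either list, and 94.1% for the 194 without. Median GC content of the gene and its flanks was 41.5% and 38%, against 46.8% for the other protein-coding genes of chromosome 7. A gene that is not an Olfr gene lay within 50 kb of 23 of the 46 marked members and 46 of the 194 unmarked members (23.7%). Outside the Olfr522 to Olfr541 cluster it was 63.0% of the 27 marked members, and within that cluster it was 31.6% of the 19 genes. Genes that share islands are not independent in these shares.

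Of 15 genes of odorant signalling, 10 had an island in WT and 12 in dKO, close to the 69.9% and 70.2% of all protein-coding genes. Gng13 and Cnga2, which encode a G protein subunit and the main subunit of the olfactory cyclic nucleotide-gated channel, and Rtp2, a receptor transport gene, had none. Ano2, a calcium-activated chloride channel gene, and Stoml3 had dKO islands alone, of 164 and 145 counts. Adcy3, the adenylyl cyclase of the cilia, had 6592 WT counts and 6903 dKO counts (log2 ratio 0.59), and Ric8b, an exchange factor for the olfactory G protein, had 20560 and 6699 (-1.10). Omp, olfactory marker protein, also on chromosome 7, had 1050 and 1421 (0.96). Per covered kb the ratios of Adcy3, Ric8b and Omp were -0.31, -0.18 and -0.04. By the 1.5-fold rule 3 of the 10 genes with a ratio were higher in dKO and 2 lower, and over all genes 14.3% and 13.3% were.

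Of 16 genes tied to receptor choice in sensory neurons, 15 had an island in WT and 14 in dKO, where 69.9% and 70.2% of all protein-coding genes did, and Emx2 had none. Lhx2, a homeodomain factor that binds receptor enhancers, had 2868 WT counts and 1868 dKO counts (log2 ratio -0.10), and its partner Ldb1 had 7441 and 5399 (0.06). Ebf1, also a B cell factor, had 4714 and 1882 (-0.81). Ehmt2, a histone H3 lysine methyltransferase, had 4724 and 7084 (1.10) but a ratio of -0.54 per covered kb. Lbr, the lamin B receptor, whose loss in sensory neurons is linked to the clustering of receptor genes, had 12784 and 8752 (-0.03). In all, 3 of the 14 genes with a ratio were higher in dKO by at least 1.5 times and 1 was lower, where 14.3% and 13.3% of all genes with a ratio were.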

How the data were processed

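H3K27ac ChIP-seq was performed on WT (4) and dKO (3) samples, with 1 input per genotype. Per the labels and methods, the authors aligned reads to mm9 with Bowtie2 2.2.5, kept those with a mapping quality above 10, pooled replicates and called islands with SICER 1.1, at an FDR below 0.01, with windows of 200 bp and gaps of 400 bp. The deposited counts are whole-number reads per island, unscaled. A place without an island has no count. How the input and duplicate reads were treated is not given in the sources used here, and the inputs, which have no values of their own, were not used.

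Gene positions came from GENCODE vM1 on NCBIM37 (mm9), and deposited starts were shifted to count from 1. Members had an island when at least 1 bp lay within 5 kb of the gene. Counts were divided by the island total of their list, ratios are log2 of dKO over WT, and 1.5 times either way was called a difference. Wilson 95% intervals cover counting error only, since PCR copies cannot be told from molecules. Genes are not replicates, so no p-value was computed. Uniqueness was the share of 50-base words found once in the genome on either strand. Python 3.11.15, numpy 2.4.6 and scipy 1.17.1 were used, and overlaps and word counts were tested on simulated data.

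The members and lists were chosen with earlier results of these data known. Named were members with the most counts per list, at start sites or in 1 list alone, the ends and neighbours of each cluster, other genes inside a cluster, and lists for odorant signalling, receptor choice and cell types. Other members were named after their values were seen, and 3 listed genes are not reported here. Alternatives changed the window, island filters, joining, overlap, scaling and measure. Filters of 1.5 and 2 CPM per kb, counts prorated to the window and the split at the Olfr522 to Olfr541 cluster were added after the data were seen.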

Additional observations from a re-analysis of the deposited data

How the results depend on the processing

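Each value came from pooled islands, so no replicate could be left out and none of the differences has a replicate check. No paired analysis was possible because each genotype has 1 pooled list. Across the alternatives run, 89 of 110 values kept their direction and stayed within 1.5 times the reported count or within its interval, 17 moved and 4 changed sign. The median log2 ratio at members, 0.41, was -0.27 with 2 kb either side of the gene, -0.12 with 10 kb and -0.02 with 1 kb either side of an annotated start, so its sign depended on the window. By counts per covered kb it was 0.03, a value counted among the 89 although it is near 0. For the Olfr522 to Olfr541 genes the median of 1.36 went to 0.44 by counts per covered kb and to 0.90 with counts prorated to the window. With islands of at least 200 counts, members with an island numbered 33 in WT and 28 in dKO, the reverse of the reported order (33 and 42). Each of these counts is nonetheless among the 89. Genes of that cluster with a dKO island numbered 12 in place of 19 with shared islands alone, by construction. With islands of at least 2 CPM per kb, members with an island numbered 10 in WT and 14 in dKO. Of these the Olfr522 to Olfr541 cluster held 4 and 12, and the other clusters 6 and 2. With this filter the median ratio outside that cluster turned to 0.34, a value that rests on 2 genes. For members outside that cluster, reported at 21 in WT and 23 in dKO with a median ratio of -0.43, the gene body alone gave 12 and 11, and 1 kb either side of a start gave 13 and 14. There the dKO number was 14 with 2 kb either side, 10 with islands of at least 200 counts and 14 with islands of at least 3 CPM, and the median ratio was -0.04 by counts per covered kb. Filters on raw counts fall harder on the dKO list, which has the lower total. The cause of the other moves was not tested.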
